A study of Mus musculus with 10 samples.

Results

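The 10 genes described here encode components of nuclear speckles: the long non-coding RNA Malat1 and the 9 proteins of Son, Srrm1, Srrm2, Acin1, Pnn, Rbm39, Luc7l, Luc7l2 and Luc7l3. They were chosen by name for their place in the speckle, after the peaks deposited for some of them were known, out of 34614 protein-coding and long non-coding RNA (lncRNA) genes of RefSeq. A peak was counted for a gene when its midpoint lay inside the gene's span on mm10. By that rule the genes held 17 of 12368 m6A peaks of Mettl3 wild-type cells, 34 of 6764 m6A peaks of Mettl3 knockout cells and 60 of 30992 peaks of YTHDC1. Since these counts bear on the choice of the genes, they are described below without a test.

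Every sample came from male mouse embryonic stem cells of strain 129, kept feeder-free in medium with serum and LIF, a cytokine that maintains pluripotency. YTHDC1, the nuclear protein that reads N6-methyladenosine (m6A), was pulled down through a Halo tag knocked into its gene (Halo-Ythdc1 knockin), with 1 pull-down and 1 input of total RNA. This pull-down (RNA immunoprecipitation, RIP) was made without fragmenting or digesting the RNA. The place of a RIP peak within a gene thus need not mark where YTHDC1 bound. Overlaps and gaps between RIP and m6A peaks below are therefore no measure of binding at m6A. m6A was mapped by immunoprecipitation of polyA RNA from Mettl3-WT and Mettl3-KO cells, with 2 precipitates and 2 inputs for each genotype. METTL3 carries the methyltransferase activity that deposits m6A on mRNA. The labels do not say how the knockout was made or whether it is 1 clone, and they give the cell type of the knockout samples as wild type. Of the 2 knockout precipitates, 1 is labelled with the file of the wild-type list, so which samples stand behind each m6A list is not settled, and this touches every comparison of genotypes below. Each list holds positions alone, with no height, read count, strand or value per sample. Differences thus have no replicate error to be set against, the depth is unknown, and the number of peaks in a gene is not an amount of m6A or of binding. Of 8 stem cell marker genes, 7 had a peak in at least 1 list, against 1 of 5 fibroblast markers, although the lists do not measure expression.

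Nuclear speckles are bodies in the nucleus, without a membrane, where splicing factors gather beside active genes. The large proteins SON and SRRM2 form their core, and many of the other residents carry stretches rich in arginine and serine. Malat1 is an abundant RNA that stays in the nucleus and collects in speckles. YTHDC1 is itself a nuclear protein that has been linked to splicing and to the retention and export of methylated RNA.

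Per length of span, Malat1 and the 9 protein genes differed most in the RIP list. RIP peaks numbered 7.16 per 10 kb in Malat1 and 1.80 per 10 kb over the 9 protein genes, and covered 23.7% and 3.98% of the span. Wild-type m6A peaks numbered 1.43 and 0.52 per 10 kb, and knockout m6A peaks 1.43 and 1.08 per 10 kb. Spans include introns, so these are not densities along mature RNA. The m6A lists come from polyA RNA and the RIP list from total RNA. The part of this difference in the contrast of Malat1 with the protein genes was not tested. Dense RIP peaks were not particular to Malat1 among speckle genes. Rbm8a had 5 RIP peaks in 3864 bp and Srsf3 8 in 10713 bp. Further speckle protein genes with spans shorter than Malat1 had 2 or fewer. These were Alyref with 2 in 3896 bp, Srsf2 with 1 in 3779 bp and Srsf5 with 2 in 5013 bp. Srsf6 had 0 in 5614 bp, Srsf9 1 in 6681 bp and Sap18 2 in 6792 bp. In peaks per gene, each m6A list held 1 peak in Malat1, and the RIP list held 5. The 9 protein genes together held 16 peaks of the wild-type m6A list, 33 of the knockout m6A list and 55 of the RIP list. Of the 10 genes, 6 had at least 1 wild-type m6A peak (20.2% of all protein-coding and lncRNA genes), 10 a knockout m6A peak (12.2% of all) and 10 a RIP peak (30.5% of all). Among lncRNA genes alone, where Malat1 belongs, 2.87% had a wild-type m6A peak, 1.81% a knockout m6A peak and 10.3% a RIP peak.

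The balance of the m6A lists varied among the protein genes. Pnn, Rbm39, Luc7l2 and Luc7l3 had knockout m6A peaks (13 in all) and no wild-type m6A peak. Son and Srrm2 had more wild-type than knockout m6A peaks, 11 against 5, and Luc7l had 1 of each. Srrm1 and Acin1 had both kinds with more in the knockout list. In total 6 of the 9 protein genes had more knockout than wild-type peaks and 2 had fewer. Among the 11235 protein-coding genes whose spans are as long as those of the 9 genes (7.1 to 58.6 kb), 1305 had more knockout peaks and 3020 had more wild-type peaks.

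**Figure D1:**
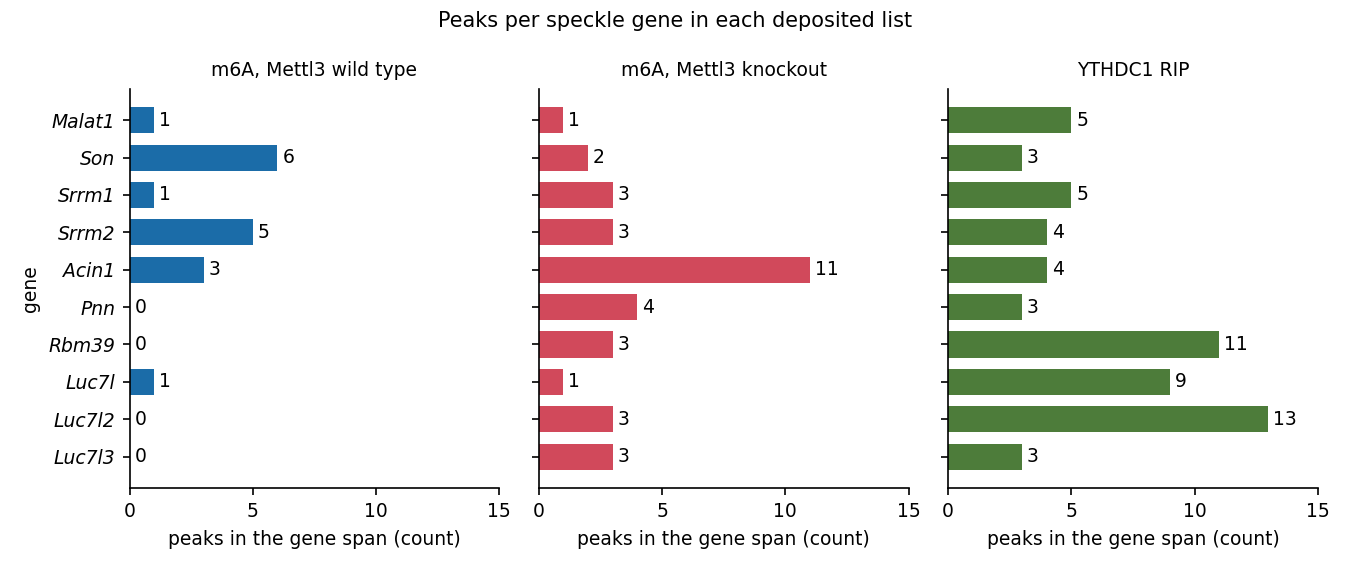
Number of peaks (horizontal axis) with a midpoint in the span of each of the 10 genes, with 1 panel for each deposited list. Wild-type m6A peaks are highest in Son with 6, knockout m6A peaks in Acin1 with 11, and RIP peaks in Luc7l2 with 13.

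Malat1 (RefSeq gene ID 72289) lies on the minus strand of chromosome 19, 5795690 to 5802672, a span of 6983 bp. Its wild-type m6A peak (5801201 to 5801550, 350 bp) covered bases 1122 to 1471 downstream of the annotated start. Its knockout m6A peak (5801701 to 5801900, 200 bp) lay nearer the start, at bases 772 to 971, with 150 bp between them. Their midpoints were at 18.6% and 12.5% of the span from the start. The 5 RIP peaks, in contrast, ran from base 556 to base 6551, were 200 to 451 bp wide and covered 23.7% of the span. The 2 RIP peaks nearest the start each met an m6A peak. The first (5801736 to 5802116) shared 165 bp with the knockout peak, and the second (5801000 to 5801412) shared 212 bp with the wild-type peak. The other 3 RIP peaks were at least 2028 bp from any m6A peak. The RIP peak nearest the 3′ end (5796121 to 5796571) ended 139 bases upstream, in the direction of transcription, of mascRNA, the small tRNA-like RNA cut from the end of Malat1 (5795924 to 5795981). No peak of any list lay over mascRNA itself.

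A further knockout peak crossed the annotated start of Malat1 (5802651 to 5802750, 100 bp). Only 22 of its bases lay inside the span, and its midpoint fell 28.5 bp outside, so it is not in the count above. Counting any overlap, Malat1 had 2 knockout peaks. The peak is shown whole, from RefSeq on GRCm38.p6, because it is the only m6A peak at the 5′ end of this RNA. It is read 5′ to 3′ on the minus strand, with the transcribed bases in capitals.
Malat1 start (chr19:5802651-5802750, minus strand): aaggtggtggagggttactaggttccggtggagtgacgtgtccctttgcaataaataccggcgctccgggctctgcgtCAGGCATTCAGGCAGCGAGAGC
The other 78 bases lie upstream of the annotated start, that is, outside the annotated RNA.

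Pnn encodes pinin, a speckle protein of the exon junction machinery that is also found at desmosomes. Its span on chromosome 12 (59066919 to 59074017, plus strand) is 7099 bp, close to that of Malat1, and the lists differed between these genes of like span. Spans include introns, so a like span need not be a like length of RNA. Pnn had no wild-type m6A peak, 4 knockout m6A peaks of 150 to 700 bp and 3 RIP peaks of 200 to 240 bp. Knockout m6A peaks covered 22.5% of the Pnn span and 2.86% of the Malat1 span. RIP peaks covered 9.49% of Pnn and 23.7% of Malat1. In both genes the m6A and RIP peaks met: the 700 bp knockout peak of Pnn (59071351 to 59072050) held a RIP peak of 200 bp whole, and its 150 bp peak (59072451 to 59072600) lay inside another RIP peak.

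**Figure D2:**
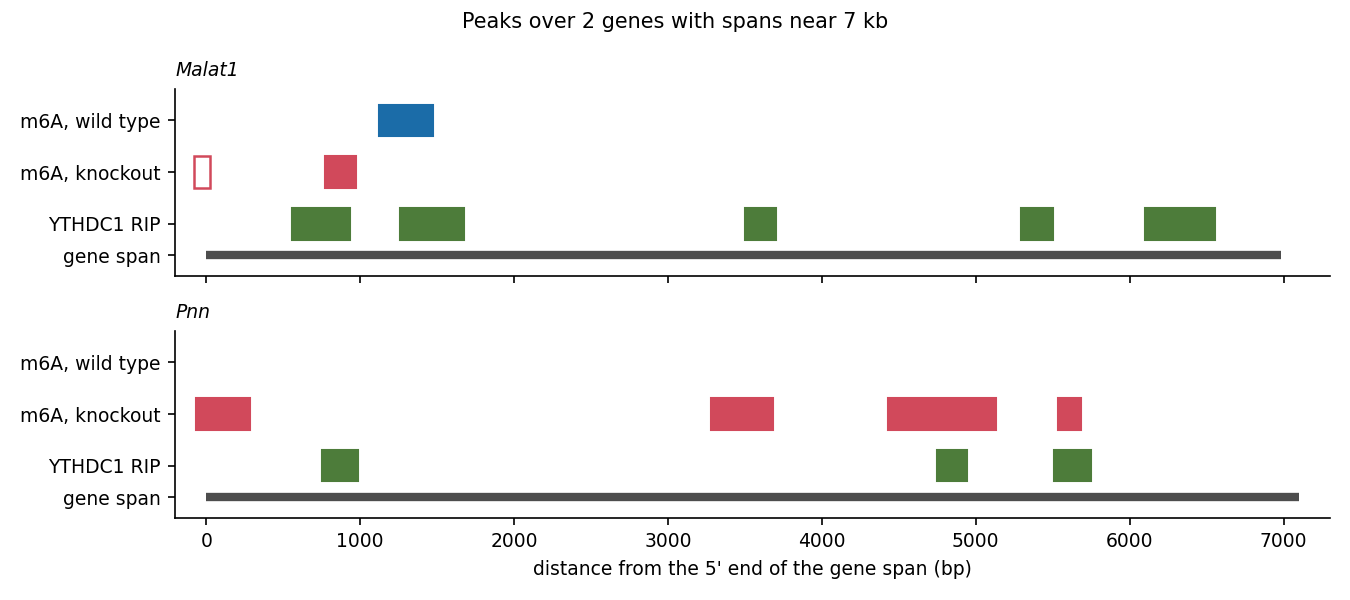
Peaks of each list over Malat1 and Pnn, drawn to scale against distance from the 5′ end of the gene span in bp (grey bar, the span). The open box is the 100 bp knockout peak at the Malat1 start whose midpoint lies outside the span. RIP peaks spread over the length of Malat1 while its m6A peaks lie near the start, and Pnn carries 4 knockout m6A peaks and none from wild type.

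The scaffold genes Son and Srrm2 held 11 of the 16 wild-type m6A peaks in the protein genes. Son (chromosome 16, 91647824 to 91679192, plus strand) had 6, of 550, 850, 1150, 250, 700 and 300 bp in order from the start. They covered 3800 bp, or 12.1% of the span. The 5 nearest the start lay close together, 6977 to 12026 bp from it, and the last at 14627 to 14926 bp. The 2 knockout peaks of Son, of 250 bp each, lay outside this region, across the start and 3727 to 3976 bp from it. None of the 6 wild-type peaks overlapped a knockout peak, and the nearest was 3000 bp away. Of 11235 protein-coding genes of like span, 45 had as many wild-type peaks as Son or more, Son included. Without Son the protein genes held 10 wild-type peaks in place of 16. The wild-type m6A peaks of Srrm2 (chromosome 17, 23790527 to 23824741, plus strand) numbered 5, of 200 to 550 bp, and all lay past 63% of the span. Its 3 knockout peaks (450, 450 and 150 bp) lay in the same part, from 62.7% to 93.8% of the span, and 1 of them overlapped a wild-type peak. The annotated starts of Srrm2 lie inside the span, at 23803187 and 23803225, so these percentages are not counted from a start. The near edges of its wild-type peaks lay 8776 to 19876 bp from the nearest annotated start.

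Srrm1 encodes a coactivator of splicing, a partner of SRRM2, and its peaks were fewer. On chromosome 4 (135320484 to 135353277, minus strand) it had 1 wild-type m6A peak of 200 bp, 3 knockout m6A peaks of 400, 100 and 200 bp and 5 RIP peaks. The wild-type peak (135325051 to 135325250) lay wholly within the 400 bp knockout peak (135324951 to 135325350), 85.8% along the span. The genotypes thus shared this site, and the other 2 knockout peaks were near the start and 18.4% along the span.

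Acin1, which encodes acinus, a partner of RNPS1 and SAP18 on spliced RNA, had the most knockout m6A peaks of the 10 genes. Its span on chromosome 14 (54642161 to 54686965, minus strand) held 11, of 150 to 550 bp, against 3 wild-type m6A peaks of 400, 1250 and 350 bp and 4 RIP peaks. No other gene among the 11235 of like span had 11 knockout peaks. The knockout peaks fell into groups, with 4 in the first 2014 bp, 1 in the middle (48% of the span) and 6 past 74%. The widest wild-type peak (54649451 to 54650700) met no knockout peak, while the other 2 each overlapped 1. Other genes overlap Acin1: 3 of its knockout peaks, 1 wild-type peak and 1 RIP peak also lie in 1700123O20Rik, and 3 further knockout peaks lie in the lncRNA gene 4930579G18Rik, both annotated on the opposite strand. Without strand in the lists these peaks cannot be assigned to Acin1 rather than to those genes. When each peak was given to 1 gene only, Acin1 kept 8 knockout and 2 wild-type m6A peaks, and 5 other genes of like span had as many knockout peaks or more. That rule puts protein-coding before lncRNA genes, so the 3 peaks shared with 4930579G18Rik stayed with Acin1 by rule.

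Rbm39 and the Luc7l genes held most of the RIP peaks. RBM39 is a splicing factor related to U2AF, and LUC7L, LUC7L2 and LUC7L3 are homologues of a yeast protein that sits with U1 in the choice of 5′ splice sites. RIP peaks numbered 13 in Luc7l2 (chromosome 6, 38551334 to 38609953), 11 in Rbm39 (chromosome 2, 156147239 to 156180238), 9 in Luc7l (chromosome 17, 26252899 to 26285510) and 3 in Luc7l3 (chromosome 11, 94291073 to 94322329). Of 11235 protein-coding genes of like span, 5 had as many as Luc7l2 or more, 15 as many as Rbm39 and 40 as many as Luc7l, each gene itself included. Luc7l3, with a span of 31.3 kb close to the 32.6 kb of Luc7l, was among 1735 with at least 3. Per 10 kb of span the RIP list held 3.33 peaks in Rbm39, 2.76 in Luc7l, 2.22 in Luc7l2 and 0.96 in Luc7l3, against 7.16 in Malat1 and 4.23 in Pnn. These are numbers of peaks per length of span, introns included. Peaks per length of mature RNA were not computed, since exons were not analysed here.

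No RIP peak met an m6A peak in 3 of these genes. None of the 33 RIP peaks of Rbm39, Luc7l and Luc7l2 overlapped an m6A peak of either genotype, while 9.56% of all RIP peaks did. The exact 95% interval reaches 10.6%, which includes that share. It is no test, since these 3 genes were grouped for having no overlap. The whole list also counts RIP peaks in genes without m6A peaks. The smallest gaps in these 3 genes were 745 bp, 1105 bp and 1896 bp. The RNA was not fragmented, so these need not be distances from sites of YTHDC1 binding. Their m6A peaks were few: 3 knockout peaks of 100, 100 and 150 bp in Rbm39, 3 of 250, 200 and 250 bp in Luc7l2, and in Luc7l a wild-type peak of 150 bp and a knockout peak of 100 bp. The knockout peaks of Luc7l2 lay between 71.8% and 88.7% of the span, in a stretch without RIP peaks, as the map along the genes shows. In Luc7l3 the lists met: 2 of its 3 RIP peaks overlapped 2 of its 3 knockout m6A peaks, by 235 and 120 bp.

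**Figure D3:**
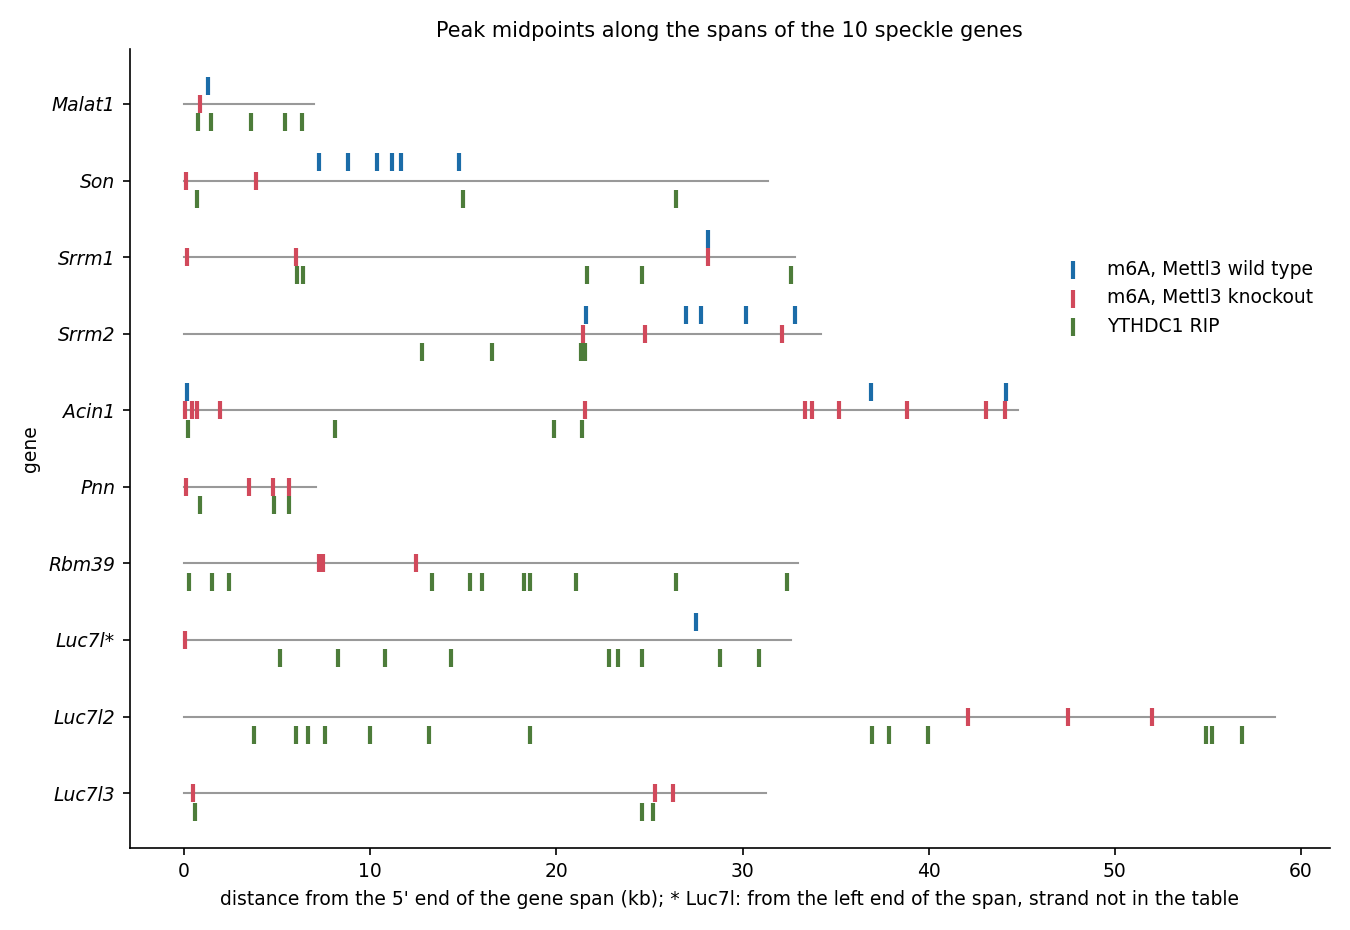
Midpoints of all peaks (ticks) along the spans of the 10 genes (grey lines), in kb from the 5′ end of the span, with wild-type m6A above the line, knockout m6A on it and RIP below it. For Luc7l the distance is from the left end of the span because its strand is not in the promoter table. Wild-type ticks gather in Son and Srrm2, knockout ticks in Acin1, and RIP ticks run along Rbm39, Luc7l and Luc7l2.

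Knockout m6A peaks marked the annotated starts of 5 of the 8 protein genes that have an entry in the RefSeq promoter table. All 8 had a knockout peak, and of the 2044 protein-coding genes of like span in the table with such a peak 62.6% had 1 at a start (14.2% of all 9020 in the table), so this count is near the background. With a peak counted at a start when its nearest edge lay within 50 bp, 6 of 33 knockout peaks were at a start (18.2%, exact 95% interval 6.98 to 35.5%, 37.1% of all knockout peaks in genes of the table). Of the wild-type peaks 1 of 16 was (6.25%, 0.158 to 30.2%, 5.19% of all), and of the RIP peaks 2 of 51 (3.92%, 0.478 to 13.5%, 5.7% of all). The knockout peaks at starts were in Son, Srrm1, Pnn and Luc7l3, with 1 each, and in Acin1 with 2. The wild-type peak was in Acin1, and the RIP peaks in Acin1 and Srrm2. All peaks at Acin1 starts also lie in 1700123O20Rik or 4930579G18Rik, on the opposite strand. The RIP peak at the Srrm2 start also lies in the lncRNA gene Gm52285, and a RIP peak of Son (91674155 to 91674354) in Donson, both on the opposite strand, so these too cannot be assigned to 1 gene. With the distance of the midpoint to either end of the span in place of the start, 5 of 34 knockout peaks (14.7%, 4.95 to 31.1%, 29.4% of all in genes) and 1 of 17 wild-type peaks (5.88%, 0.149 to 28.7%, 4.56% of all in genes) lay within 200 bp. By peak, the share of knockout peaks at starts was thus below that of the whole knockout list, with 11 of the knockout peaks in Acin1 alone. By gene, the share was near that of genes of like span with a knockout peak. Peaks of 1 gene are not independent, and the intervals cover counting error only.

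The starts under knockout peaks are shown because they are where this list meets the 5′ end of the speckle genes. Each line gives 30 bases before and 30 bases after the start from RefSeq on GRCm38.p6, 5′ to 3′ on the strand of the gene, with the transcribed bases in capitals.
Son start (chr16:91647794-91647853, plus strand): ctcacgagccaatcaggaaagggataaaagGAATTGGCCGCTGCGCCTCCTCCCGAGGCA
Srrm1 start (chr4:135353117-135353176, minus strand): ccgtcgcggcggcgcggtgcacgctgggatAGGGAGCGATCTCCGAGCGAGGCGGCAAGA
Acin1 inner start (chr14:54653672-54653731, minus strand): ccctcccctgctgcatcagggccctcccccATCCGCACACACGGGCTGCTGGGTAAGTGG
Acin1 first start (chr14:54686936-54686995, minus strand): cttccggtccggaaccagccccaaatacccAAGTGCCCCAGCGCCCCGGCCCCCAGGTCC
Pnn start (chr12:59066889-59066948, plus strand): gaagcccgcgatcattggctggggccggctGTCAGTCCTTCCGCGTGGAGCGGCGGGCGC
Luc7l3 start (chr11:94321934-94321993, minus strand): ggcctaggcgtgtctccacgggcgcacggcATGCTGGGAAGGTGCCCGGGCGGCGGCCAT
The peaks of Srrm1, Pnn and both Acin1 starts covered all 60 bases, that of Son 53, and that of Luc7l3 17, beginning 13 bases after the start. Except for Luc7l3 the peaks reached 23 to 85 bp upstream of the start. GGAC is the core of the sequence that METTL3 most often methylates. These letters occur on the strand of the gene in none of these 6 lines or in the Malat1 peak. Their reverse complement GTCC occurs in 3 of the 7 printed sequences. Only 30 bases of each line and 22 of the Malat1 peak are in the annotated RNA. That is too few to show whether the motif is lacking there. Each 300-base window of the promoter table holds 250 bases before a start and 50 from it on, so most of it is outside the annotated RNA. Of 14 windows of the 9 genes with an entry, 8 hold GGAC on the gene's strand (57.1%), against 65.6% of all 32851 windows. On either strand 92.9% and 87.7% hold it. The 14 windows include 4 of Acin1 and 2 each of Srrm2 and Rbm39. These counts do not bear on methylation of the RNA.

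Sites of the speckle genes in both genotype lists numbered 4. Of the 17 wild-type peaks, 4 shared 1 bp or more with a knockout peak (23.5%, exact 95% interval 6.81 to 49.9%, 11.6% of all wild-type peaks). Of the 34 knockout peaks, 4 overlapped a wild-type peak (11.8%, 3.3 to 27.5%, 21.4% of all knockout peaks). Both intervals include the share of the whole list. This is no test, since the genes were chosen and peaks of 1 gene are not independent. Acin1 held 2 of these sites and Srrm1 and Srrm2 1 each, while Malat1, Son and Luc7l had peaks in both lists at separate places. By gene, 4 of the 9 protein genes had a knockout peak and no wild-type peak (8.15% of protein-coding genes of like span), 5 had both (13.7%) and 0 had a wild-type peak alone (21.9%). The lists offer no test of whether peaks called in knockout cells are m6A.

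RIP peaks met both kinds of m6A peak, which by itself does not place YTHDC1 at those sites. A RIP peak overlapped 4 of the 17 wild-type peaks (23.5%, 6.81 to 49.9%, 13.5% of all), in Malat1, Son, Srrm2 and Acin1. It overlapped 10 of the 34 knockout peaks (29.4%, 15.1 to 47.5%, 22.0% of all), of which 3 were in Acin1, 2 each in Pnn and Luc7l3, and 1 each in Malat1, Srrm1 and Srrm2. Seen from the RIP list, 12 of 60 peaks lay on an m6A peak of either genotype (20%, 10.8 to 32.3%, 9.56% of all RIP peaks). This interval lies above the share of all RIP peaks, and it is no test either, since peaks of 1 gene are not independent. Nor are these shares like for like with those of the whole lists. All 10 genes have a knockout m6A peak and a RIP peak, against 12.2% and 30.5% of all genes. The whole lists also count peaks in genes that hold no peak of the other kind. In Srrm2 the 79 bp RIP peak (23812043 to 23812121) lay inside a site present in both m6A lists. In Son the overlap of the lists was 48 bp, at the wild-type peak farthest from the start (91662451 to 91662750). The labels give total RNA for RIP and polyA RNA for m6A, and the part of this difference in the overlap was not tested.

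Among other genes of the speckle more had a knockout than a wild-type m6A peak. Their list was made with earlier results of these data known, so it is no independent repeat of the pattern. Of 60 further genes of speckle proteins, their kinases and partners, all found in the gene table, 57 had a RIP peak (95%), 46 a knockout m6A peak (76.7%) and 30 a wild-type m6A peak (50%). Among the 9 protein genes these numbers were 9, 9 and 5. Among all 11235 protein-coding genes of like span, 47.3% had a RIP peak, 21.8% a knockout m6A peak and 35.6% a wild-type m6A peak. Of the 60 genes 12 have spans outside that range, and of the other 48 a RIP peak was found in 95.8%, a knockout m6A peak in 77.1% and a wild-type m6A peak in 50%. Of all 60, 21 had a knockout peak alone, 5 a wild-type peak alone, 25 both and 9 neither. The median number of peaks was 2 in the RIP list, 2 in the knockout list and 0.5 in the wild-type list. The transcription kinase genes Cdk13 and Cdk12 had the most wild-type peaks, 5 each, with 0 and 2 knockout peaks, followed by Ythdc1 with 4 and 4. The most knockout peaks were in Zc3h18, which encodes a zinc finger protein of RNA processing (8, with 3 wild-type peaks), followed by 4 genes with 5 each: Rbm25 and Snrnp70 with 1 wild-type peak each, Srek1 with 2 and Cdk11b with 0. RIP peaks were most numerous in Rsrc1 and Rbm25, with 12 each, in spans of 377040 and 50920 bp. The splicing regulator genes Tra2a and Srsf3 and the kinase gene Cdk13 followed with 8 each, in spans of 20328, 10713 and 93537 bp. These rankings are by number of peaks and are not set against span. The lists hold no expression values, so these shares are not matched on expression.

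**Figure D4:**
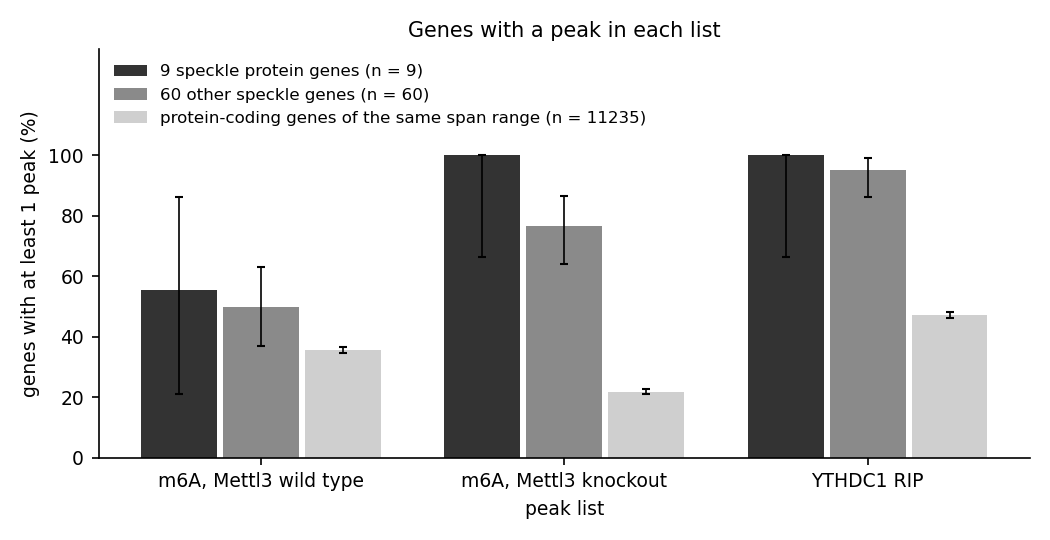
Percentage of genes with at least 1 peak in each list for the 9 protein genes, 60 other speckle genes and 11235 protein-coding genes with spans of 7.1 to 58.6 kb, a range that 48 of the 60 genes fall in. Bars are percentages and whiskers exact 95% binomial intervals, which cover counting error only. Both sets of speckle genes were chosen with earlier results of these data known. Among speckle genes the knockout list reaches more genes than the wild-type list (100% and 76.7% against 55.6% and 50%), and among all genes of like span it reaches fewer.

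Genes with a like pattern were sought by the distance between log2(peaks + 1) values over the 3 lists. Among 499 other lncRNA genes whose symbols are not of the Gm, Rik or LOC kind, those nearest to Malat1 were Dleu2, Platr11 and Norad, each with 1 wild-type and 1 knockout m6A peak and with 6, 4 and 3 RIP peaks. Norad spans 4.92 kb, while Dleu2 and Platr11 span 79.5 and 45.2 kb. Nearest to Acin1 were Mdn1 (3 wild-type m6A, 12 knockout m6A and 4 RIP peaks), Ewsr1 (2, 7 and 4, in the same order) and Safb2 (3, 6 and 4). Son shared its counts of 6, 2 and 3 with Sall4, a pluripotency factor gene, and Eif2ak2 and Cic followed with 5, 2 and 3 each. Rbm39 shared its 0, 3 and 11 with Smc3, a cohesin subunit gene, followed by Npm1 and Ppp2r5c with 0, 3 and 10 each. Neat1, the paraspeckle RNA gene beside Malat1 on chromosome 19, had 2 wild-type m6A peaks, 1 knockout m6A peak and 5 RIP peaks, of which 3 lay on an m6A peak.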

How the data were processed

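The authors deposited 3 peak lists with chromosome, start and end in bp and no score. Coordinates are on mm10, and MACS2 2.1.2, HISAT2 2.2.0, STAR 2.7, SAMtools 1.9, Trim Galore 0.6.4 and bcl2fastq are named in the submitters' processing notes. What each tool did, the peak threshold and whether samples were pooled is not given in the sources used here. All m6A peaks start and end on a 50 bp grid (100%), and 0.513% of RIP peaks do, so peak numbers and widths of m6A and RIP are not on 1 footing.

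Peaks were set against RefSeq gene spans of GRCm38.p6 (34614 genes), counted from 1, with Python 3.11.15, pandas 2.3.3 and SciPy 1.17.1. A midpoint in several spans counted for each of them, while the backgrounds for positions along genes gave each peak to 1 gene. The promoter table gave strand and start for 9 of the 10 genes, and Luc7l is not in it. Overlap was at least 1 bp. Intervals are exact (Clopper-Pearson, 95%) and cover counting error only. Counting was tested on simulated peaks.

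The genes, the list of other speckle genes and the rule for like patterns were chosen with earlier results of these data known. Named outside the 10 genes are the 3 other speckle genes with the most peaks in each list (ties by bp covered). Srek1, Cdk11b and Srsf3 tie with them and were added after their values were seen. Rbm8a, Alyref, Srsf2, Srsf5, Srsf6, Srsf9 and Sap18 were added for their short spans, also after their values were seen. Also named are the 3 genes of most like pattern for Malat1, Acin1, Son and Rbm39, and Neat1. Exons, and thus coding or untranslated position, were not analysed here.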

Additional observations from a re-analysis of the deposited data

How the results depend on the processing

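Of 83 alternative values for 17 counts, 66 stayed within 1.5 times the main count and 17 did not. Counting only peaks above the median width of their list removed most: it left 7 wild-type, 13 knockout and 22 RIP peaks in the protein genes, 3 and 5 protein genes with a wild-type and a knockout m6A peak, 0 m6A peaks of either genotype in Malat1, 0 sites in both genotypes, and 0 wild-type and 3 knockout m6A peaks on a RIP peak. Leaving out Son gave 10 wild-type peaks, and a minimum of 2 peaks gave 3 protein genes with wild-type m6A. Counting any overlap gave Malat1 2 knockout peaks. With 50% of the m6A peak as the minimum overlap, 2 wild-type peaks lay on a RIP peak. Within 100 bp of a span end lay 0 wild-type and 2 knockout peaks. The cause was not tested, beyond the smaller number of peaks that these settings admit. The distances to starts were chosen after seeing the data. No paired analysis was possible because each list has no values per sample, and no replicate could be left out for the same reason.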

Other observations

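RIP peaks of exactly 200 bp were frequent: 18 of the 60 in the speckle genes had this width, among them all 3 of Son, and so did 24.6% of the whole RIP list. The knockout m6A list had 24.7% of its peaks at 200 bp and the wild-type list 9.76%.

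Over all genes of the promoter table the knockout m6A list lay at starts more often than at 3′ ends. Within 50 bp of the 3′ end of the span were 0.507% of knockout peaks, 3.02% of wild-type peaks and 0.915% of RIP peaks. In the 9 speckle genes of that table no knockout peak lay that close to a 3′ end. The nearest, 550 bp wide and in Acin1, had its midpoint 714.5 bp inside the span. It covered the whole of a 400 bp wild-type peak, with its midpoint 639.5 bp inside.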
